A study of Caenorhabditis elegans with 6 samples.

Results

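The 10 genes described here encode the JNK and ERK branches of mitogen-activated protein kinase (MAPK) signaling in *C. elegans*: *jnk-1*, *jkk-1*, *kgb-1*, *kgb-2*, *mek-1* and *mlk-1* on the JNK and JNK-like side, and *let-60*, *lin-45*, *mek-2* and *mpk-1* on the ERK side. They were taken by gene name from the deposited annotation, which lists 20362 protein-coding genes, and all 10 were found and passed the filter on low counts that left 13736 genes for testing. RNA was sequenced from whole nematodes of wild-type N2 (Bristol) (WT, 3 libraries) and of a strain carrying *hsp-16.2p::grh-1::gfp* (*grh-1* OEx, 3 libraries), in which a promoter that responds to heat, that of *hsp-16.2*, drives the Grainyhead transcription factor gene *grh-1* fused to *gfp*. Per the methods, this strain is 1 integrated line obtained by bombardment of *unc-119*(*ed3*) mutants and then backcrossed to N2, so that it differs from WT by its construct and integration site and by whatever remains of the bombarded strain. Both groups developed for 64 h at 20 °C on *E. coli* OP50, were collected as adults 48 h later, and received no heat shock.

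MAPK cascades pass a signal by phosphorylation, from a MAP kinase kinase kinase to a MAP kinase kinase and then to the MAP kinase itself. In the nematode, LET-60 (Ras) and LIN-45 (Raf) act through MEK-2 on the ERK kinase MPK-1, which is known for vulval induction and for meiotic progression and oocyte maturation in the germline. MLK-1 and MEK-1 act on the JNK-like kinase KGB-1, known for the response to heavy metals and for axon regeneration, while JKK-1 acts on JNK-1 in neurons. Counts of mRNA do not measure the phosphorylation of any of these proteins.

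The libraries held between 14409044 and 25535026 counts, of which the 10 genes took from 0.0669% to 0.0803%. Levels are in CPM, read counts scaled to the size of the library times a normalization factor (TMM). This factor was 0.846 in WT replicate 3 and 1.006 to 1.07 in the other 5 libraries, and a lower factor gives higher CPM. Libraries are given in the order of replicates 1, 2 and 3. *grh-1* itself was at 7.65, 9.69 and 6.52 CPM in *grh-1* OEx, above its WT levels of 4.997, 5.63 and 6.17 CPM, by a log2 fold change of 0.51 that fell short of the threshold (adjusted p = 0.709, quasi-likelihood test of edgeR, Benjamini-Hochberg). Markers of germline, oocyte, neuron, epidermis, muscle and intestine were detected in every library of these whole nematodes, and none of the markers tested had a count of 0. WT replicate 3 stood apart: its 7 tested sperm markers, of 10 listed, summed to 152 CPM, against 5.27 to 21.5 CPM in the other 5 libraries. In whole nematodes, fewer cells of a type and less RNA per cell cannot be told apart.

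None of the 10 genes passed an adjusted p of 0.05 in *grh-1* OEx against WT, and none reached an unadjusted p of 0.05. The count of 0 of 10 was the same in edgeR, DESeq2 and limma-voom. Over all tested genes, 0.146% were called higher and 0.298% lower by edgeR at the adjusted threshold, and 6.62% had an unadjusted p under 0.05, shares at which 0 of 10 is no result about these genes in particular. Without WT replicate 3 the count was also 0, and the median log2 fold change of the 10 genes was 0.08 in place of 0.03. The summed level of the 10 genes was 715 ± 106 CPM in WT and 716 ± 79.1 CPM in *grh-1* OEx (SD, n = 3 each). For 9 of the 10 genes the groups overlapped, where 9.53% of all tested genes had groups that did not, and the difference of the group means was smaller than the larger of both SDs. *kgb-2* was the exception in both counts. The other 9 had fold differences between 0.945 and 1.14. The share of all tested genes with a difference below the larger SD was not computed, so that this count is no result about these genes in particular. The median log2 fold change of the 10 was 0.03, beside -0.01 for all tested genes, and the median of the absolute values was 0.06, beside 0.12.

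**Figure D1:**
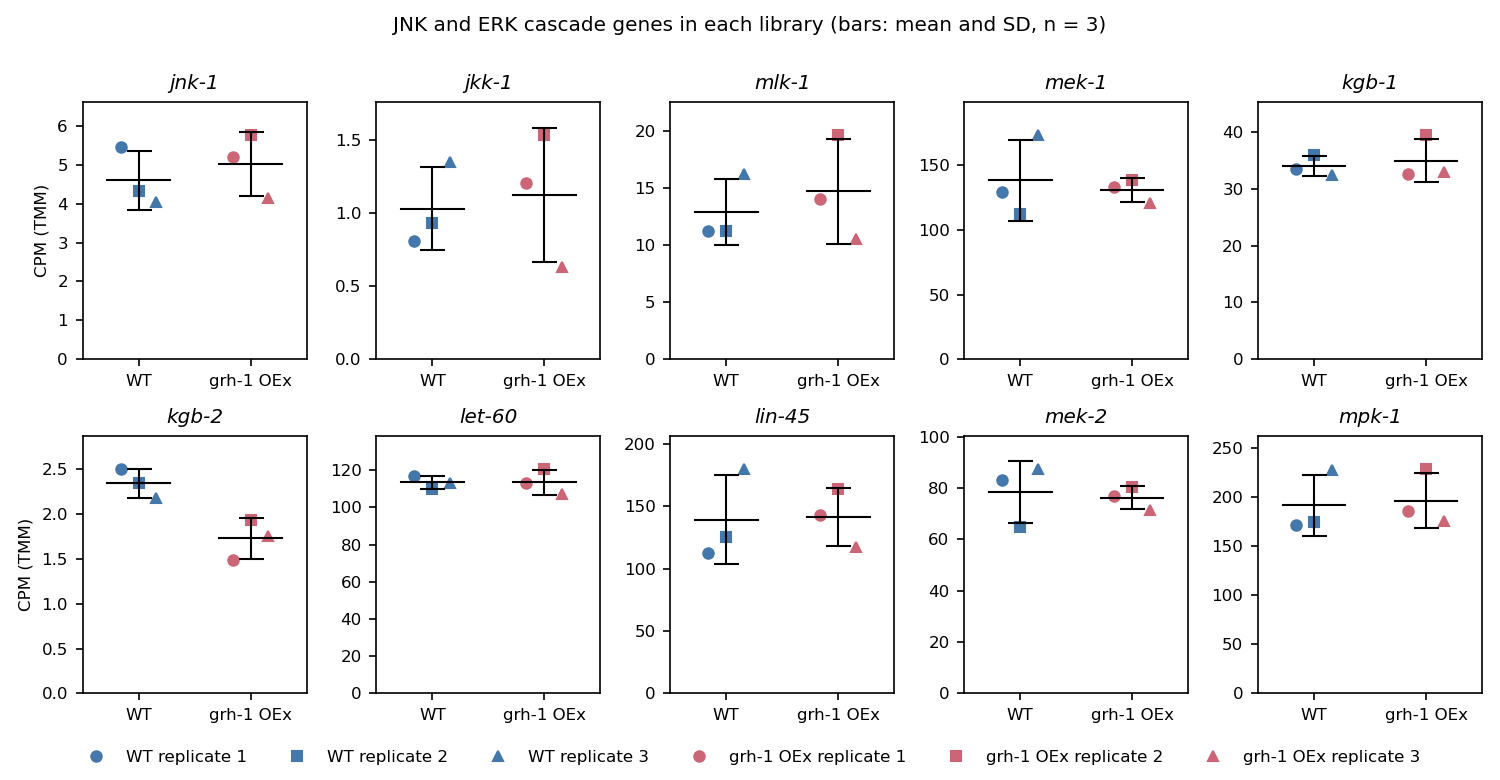
Level of each of the 10 genes in each library, in CPM on a linear axis that starts at 0, with WT in blue and *grh-1* OEx in red, and with a horizontal line for the mean and bars for the SD (n = 3). The groups overlap in 9 panels, and in the panel of *kgb-2* the 3 *grh-1* OEx libraries (1.49 to 1.94 CPM) lie below the 3 WT libraries (2.18 to 2.50 CPM).

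Per kilobase of gene length, the scale on which genes can be set beside each other, the levels ran from 0.613 CPM per kilobase for *jkk-1* to 104.3 for *mpk-1* as means of the 6 libraries. The order was *mpk-1*, *mek-1* (102), *let-60* (81.9), *lin-45* (46.6), *mek-2* (43.7), *kgb-1* (21.9), *mlk-1* (3.997), *jnk-1* (2.89), *kgb-2* (1.67) and *jkk-1*. Neighbors in this order did not always have separate ranges over the 6 libraries. The library ranges of *mpk-1* (92.3 to 123) and *mek-1* (85.1 to 131) overlapped, as did those of *mek-1* and *let-60* (77.3 to 86.9), of *lin-45* (37.4 to 59.7) and *mek-2* (36.7 to 49.3), and of *mlk-1* (3.05 to 5.68) and *jnk-1* (2.42 to 3.46). Within each library *mek-1* lay above *let-60*, while the order of the other overlapping pairs varied between libraries. The ranges of *kgb-1* (20.6 to 25.02), *kgb-2* (1.23 to 2.05) and *jkk-1* (0.358 to 0.873) met no neighbor. The ERK side thus held 4 genes of high level, whereas the JNK side ranged from *mek-1*, at the level of *mpk-1*, down to its lowest members.

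**Figure D2:**
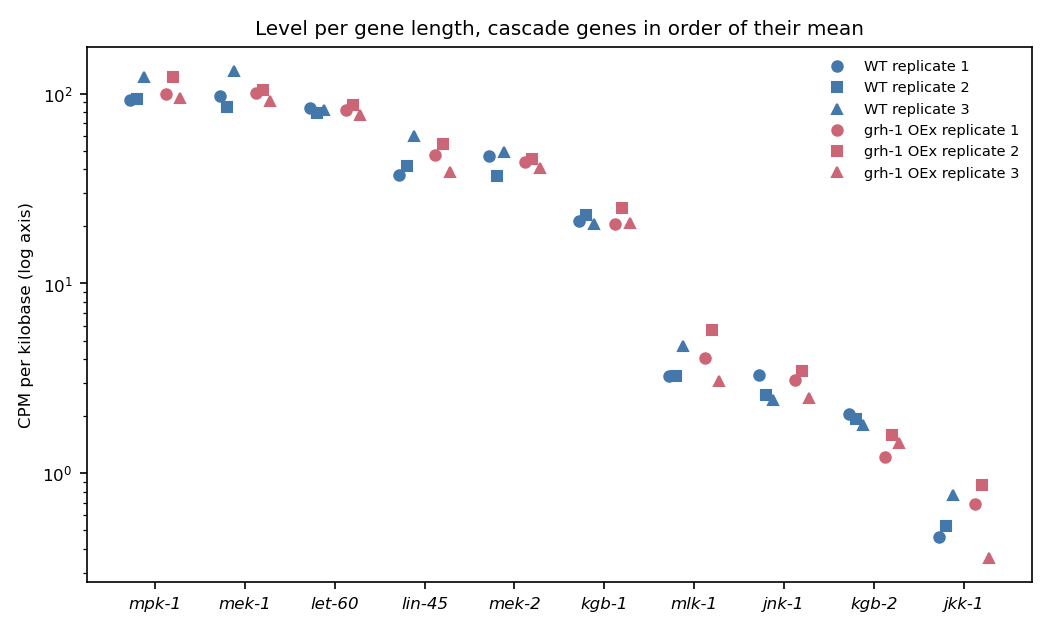
Level per gene length of the 10 genes in CPM per kilobase on a log axis, 1 point per library, ordered by the mean of the 6 libraries. WT and *grh-1* OEx points overlap for each gene except *kgb-2*, while the genes range from 0.613 for *jkk-1* to 104.3 for *mpk-1*.

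*jnk-1* (WBGene00002178, chromosome IV of WBcel235, 6957641 to 6963716, plus strand) encodes the JNK kinase proper. Its level was 5.47, 4.32 and 4.04 CPM in WT and 5.199, 5.76 and 4.14 CPM in *grh-1* OEx. The highest library was *grh-1* OEx replicate 2 and the lowest WT replicate 3, so that each group spanned most of the other's range. Its log2 fold change of 0.13 had a standard error of 0.22 and a 95% interval from -0.36 to 0.63. The adjusted p was 0.9998 for it and for each of the other genes of the 10 except *kgb-2* (edgeR).

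*jkk-1* (WBGene00002177, chromosome X, 5368468 to 5372059, plus strand), the MAP kinase kinase that acts on JNK-1, was the lowest of the 10, with 10 to 30 counts a library. It stood at 0.810, 0.929 and 1.35 CPM in WT, against 1.20, 1.53 and 0.627 CPM for *grh-1* OEx. Both the highest and the lowest library belonged to *grh-1* OEx. At this depth the 95% interval of the log2 fold change of 0.12 ran from -0.76 to 1.00 and held a doubling, so that a change of that size in *jkk-1* could not be detected. In the Ensembl annotation *jkk-1* overlaps *F35C8.8* on the opposite strand, and without strand marking by the kit the reads of such pairs cannot be told apart. Its model in release 115 also runs on to 5374174 and there shares 6 exons with a pseudogene on the same strand (5373032 to 5374197), which lies beyond the deposited end of *jkk-1*. Overlaps on the opposite strand, with reads that cannot be told apart, also occur at 1 end of *mlk-1* and of *mek-2*. *mlk-1* begins at 5056379 and *cwp-4* ends at 5056474, and *mek-2* begins at 3005427 and *Y54E10BL.3* ends at 3005943. *jnk-1* and *B0478.3* barely meet, as *B0478.3* starts at the deposited last base of *jnk-1*, 6963716.

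*mlk-1* (WBGene00003374, chromosome V, 5056379 to 5064803, minus strand) encodes the mixed-lineage kinase at the top of the KGB-1 cascade. Its level was 11.21, 11.26 and 16.25 CPM in WT and 14.01, 19.6 and 10.5 CPM in *grh-1* OEx. *grh-1* OEx held its highest and its lowest library, and *mlk-1* had the widest *grh-1* OEx spread after *jkk-1*, with a coefficient of variation of 31.2%. The log2 fold change of 0.19 (standard error 0.24, 95% interval from -0.35 to 0.73) was the largest positive value of the 10, and it became -0.07 without *grh-1* OEx replicate 2.

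*mek-1* (WBGene00003185, chromosome X, 7479248 to 7481000, plus strand), the MAP kinase kinase between MLK-1 and KGB-1, stood at 129, 112.6 and 173 CPM in WT, against 133, 139 and 121 CPM for *grh-1* OEx. WT replicate 3 was the highest library and WT replicate 2 the lowest, and all *grh-1* OEx libraries lay between them. Its log2 fold change was -0.08 (standard error 0.17, 95% interval from -0.47 to 0.31), and 0.11 without WT replicate 3.

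*kgb-1* (WBGene00002187, chromosome IV, 405623 to 410026, minus strand), the JNK-like kinase itself, was one of the steadiest members. Its level was 33.6, 36.0 and 32.5 CPM in WT and 32.6, 39.5 and 33.0 CPM in *grh-1* OEx, with 5 libraries within the narrow range of 32.5 to 36.0 CPM and *grh-1* OEx replicate 2 above it. With a log2 fold change of 0.04 and a standard error of 0.13, the 95% interval ran from -0.24 to 0.32.

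*kgb-2* (WBGene00002188, chromosome IV, 3606796 to 3609229, plus strand) encodes a JNK-like kinase related to KGB-1. It stood at 2.50, 2.35 and 2.18 CPM in WT, against 1.49, 1.94 and 1.76 CPM for *grh-1* OEx, which made it the only member of the 10 whose groups did not overlap. Over all tested genes, 6.14% had *grh-1* OEx below WT without overlap. The log2 fold change was -0.44, with a standard error of 0.26 and a 95% interval from -1.02 to 0.14 (adjusted p = 0.893, edgeR), so that neither no change nor a halving could be set aside. It was negative in each of the 14 alternatives, from -0.53 to -0.34, and passed the threshold in none of them. The alternatives reuse the same libraries, in which the groups did not overlap, so that the constant sign adds no support. These levels rest on 28 to 47 counts a library, for which counting error alone gives a coefficient of variation of up to 18.9%, against an observed 6.77% among WT and 12.97% among *grh-1* OEx libraries. *kgb-2* overlaps *ltah-1.2* on the opposite strand at its end, and reads that match both *kgb-1* and *kgb-2*, if any, could be lost or split in counting. The ratio of *kgb-1* to *kgb-2* per kilobase, a measure chosen after its values were seen, was 10.4, 11.8 and 11.5 in WT and 16.8, 15.7 and 14.5 in *grh-1* OEx, with no overlap between the groups. As *kgb-1* differed little between the groups (log2 fold change 0.04), this ratio largely restates the levels of *kgb-2*.

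On the ERK side, *let-60* (WBGene00002335, chromosome IV, 11688227 to 11691088, minus strand), the Ras GTPase that receives signals from the EGF and FGF receptors, was the least variable of the 10. Its level was 117, 110 and 113.3 CPM in WT and 113.1, 120.4 and 107 CPM in *grh-1* OEx, so that its highest library was only 1.12-fold above its lowest. The group means were 113.4 ± 3.33 and 113.5 ± 6.67 CPM (SD, n = 3 each). The log2 fold change, 0.002 with a standard error of 0.12, had a 95% interval from -0.28 to 0.28.

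*lin-45* (WBGene00003030, chromosome IV, 6742538 to 6748424, minus strand), the Raf kinase that Ras activates, varied far more. It stood at 112, 125 and 179 CPM in WT, against 143, 163 and 117 CPM for *grh-1* OEx, with WT holding both the highest and the lowest library. The coefficient of variation was 25.6% in WT, beside a counting error of 2.45% in its shallowest library. The log2 fold change was 0.02 (standard error 0.20, 95% interval from -0.43 to 0.47), and 0.24 without WT replicate 3.

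*mek-2* (WBGene00003186, chromosome I, 3005427 to 3013448, minus strand) encodes the MAP kinase kinase that phosphorylates MPK-1. Its level was 83.2, 64.9 and 87.3 CPM in WT and 77.1, 80.3 and 71.4 CPM in *grh-1* OEx, all *grh-1* OEx libraries lying inside the WT range. Between the groups the log2 fold change was -0.04, with a standard error of 0.14 and a 95% interval from -0.36 to 0.28.

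*mpk-1* (WBGene00003401, chromosome III, 4216770 to 4228094, minus strand), the ERK kinase, had the highest count of the 10, between 2542 and 4904 a library. It stood at 172, 175 and 228 CPM in WT, against 185, 228 and 176 CPM for *grh-1* OEx. WT replicate 3 and *grh-1* OEx replicate 2 reached the same level after TMM scaling, and the 4 other libraries lay between 172 and 185 CPM. Before that scaling they held 4904 of 25535026 counts (WT replicate 3) and 4470 of 19499700 counts (*grh-1* OEx replicate 2), a lower share in WT replicate 3. The log2 fold change was 0.04 (standard error 0.17, 95% interval from -0.35 to 0.42), and 0.18 without WT replicate 3. The annotation lists 3 transcripts of *mpk-1*, which counts per gene do not separate.

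Balances within a cascade overlapped between the groups as well. *mek-2* over *mpk-1* per kilobase was 0.391 to 0.509 in WT and 0.370 to 0.437 in *grh-1* OEx, and *lin-45* over *mpk-1* was 0.405 to 0.487 and 0.412 to 0.476. *mek-1* over *kgb-1* was 3.73 to 6.37 in WT and 4.19 to 4.88 in *grh-1* OEx.

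**Figure D3:**
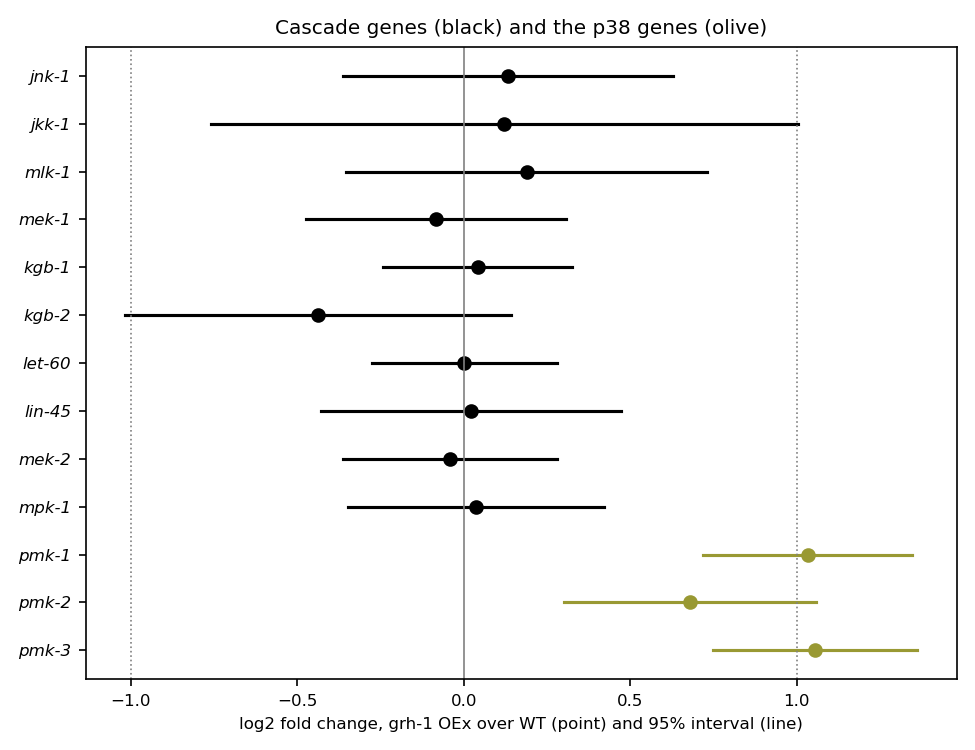
Log2 fold change of *grh-1* OEx over WT (points) with its 95% interval (lines) for the 10 genes in black and the p38 genes *pmk-1*, *pmk-2* and *pmk-3* in olive, with dotted lines at a halving and a doubling. All 10 black intervals hold 0 and 8 of them exclude both dotted lines, whereas the olive intervals begin at 0.72, 0.30 and 0.75.

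The intervals give the size of change that these 6 libraries leave possible. For 8 of the 10 genes the 95% interval excluded both a doubling and a halving, as it did for 80.3% of all tested genes. The exceptions were *jkk-1*, whose interval held a doubling, and *kgb-2*, whose interval held a halving, and both had fewer than 50 counts in every library. The narrowest intervals, those of *let-60*, *kgb-1* and *mek-2*, allowed fold changes between 0.826 and 1.21, between 0.846 and 1.253, and between 0.778 and 1.22.

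The highest library was often the same one. *grh-1* OEx replicate 2 was the highest library for 6 of the 10 genes and WT replicate 3 for 3 of them. Against the mean of the other 5 libraries, the median deviation of the 10 genes in log2 CPM was 0.25 in WT replicate 3 and 0.26 in *grh-1* OEx replicate 2, and it was -0.16 in WT replicate 2 and -0.18 in *grh-1* OEx replicate 3. WT replicate 3 had the lowest TMM factor, 0.846, which raises every CPM of that library. The medians of the pathway lists were also all positive in WT replicate 3 and in *grh-1* OEx replicate 2. The median deviation of all tested genes was not computed. In WT replicate 3, *mek-1* and *lin-45* (both 0.45) and *mlk-1* (0.31) stood highest, and *jnk-1* lay at -0.26. In *grh-1* OEx replicate 2, *mlk-1* deviated by 0.63 and *jkk-1* by 0.48. Marker lists also deviated in these libraries. The median deviation of 8 germline markers was 0.43 in WT replicate 3 and 0.16 in *grh-1* OEx replicate 2, and that of 8 oocyte and eggshell markers was 0.55 and 0.16. That of 7 sperm markers was 3.37 and 0.11. For 8 neuron markers it was 0.18 and 0.28, for 6 epidermis markers 0.10 and 0.47, for 5 body wall muscle markers 0.41 and 0.29, and for 6 intestine markers 0.31 and 0.17. In *grh-1* OEx replicate 3, the library in which *jkk-1* (-0.54) and *mlk-1* (-0.41) were lowest, the medians of the sperm (-0.52), neuron (-0.47), muscle (-0.44) and epidermis (-0.21) markers were negative, as were those of the oocyte (-0.13) and intestine (-0.08) markers, and that of the germline markers was near 0. In WT replicate 1 the markers and the 10 genes went together less. The median of the 10 genes there was -0.05, while every marker list was negative, among them sperm (-1.37), muscle (-0.62), oocyte (-0.34) and neuron (-0.08). The summed germline markers ranged from 2352 to 3420 CPM in WT and from 2434 to 2850 CPM in *grh-1* OEx, with none at 0, and the summed neuron markers from 314 to 393 and from 280 to 386 CPM. The part of cell composition in the levels of the 10 genes was not tested.

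**Figure D4:**
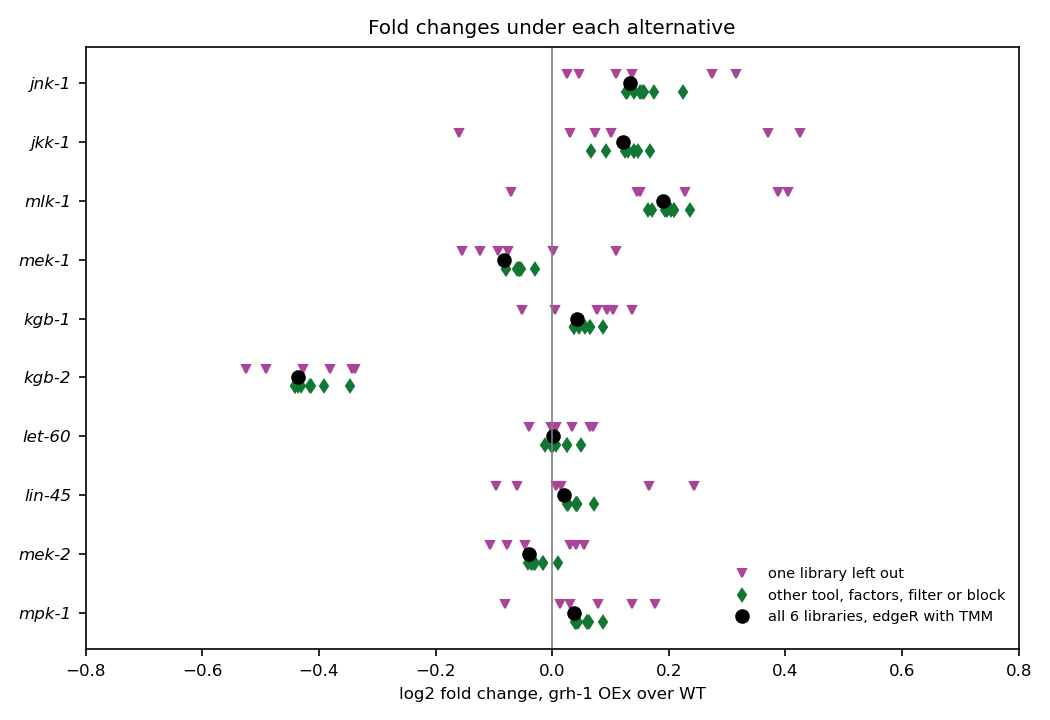
Log2 fold change of each of the 10 genes with all libraries (black), with 1 library left out (purple triangles) and with another tool, normalization, filter or a replicate block (green diamonds). The purple points spread more widely than the green ones, those of *kgb-2* run from -0.53 to -0.34, and no point passed the threshold.

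The rest of the MAPK family gives the comparison. Of 13 genes annotated with MAP kinase activity, 12 were tested, and 4 of these are *jnk-1*, *kgb-1*, *kgb-2* and *mpk-1*. Among the others, the p38 gene *pmk-1* was at 25.04 ± 3.14 CPM in WT and 51.1 ± 5.19 CPM in *grh-1* OEx (SD, n = 3 each; adjusted p = 0.0119, edgeR), and *pmk-3* rose by a log2 fold change of 1.055 (adjusted p = 0.00918). *pmk-2* had a log2 fold change of 0.68 and did not pass (adjusted p = 0.228). The remaining tested genes of this annotation did not pass either. Their log2 fold changes were 0.70 for *dyf-5* (standard error 0.42), 0.17 for *C05D10.2*, 0.04 for *sma-5*, 0.02 for *lit-1* and -0.06 for *mpk-2*. Per kilobase, *mpk-1* was 5.43, 6.15 and 9.27 times the level of *pmk-1* in WT and 3.06, 3.72 and 3.45 times in *grh-1* OEx. *kgb-1* lay above *pmk-1* in every WT library and below it in every *grh-1* OEx library, where it was 0.634, 0.758 and 0.764 times that level. Neither ratio overlapped between the groups. Of the summed level per kilobase of the 7 JNK, KGB, ERK and p38 kinase genes, the p38 genes took 23.7%, 23.6% and 17.01% in WT and 36.1%, 31.9% and 33.6% in *grh-1* OEx. Over the same libraries *mpk-1* took 59.2%, 59.2% and 69.0%, and then 51.1%, 54.7% and 52.6%. Since the p38 genes were known to be higher in these libraries, their ratios and shares are a description, with no test.

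Of the 10 genes, 5 lie on chromosome IV, which also carries the p38 genes from 8139219 to 8151246. None of the 5 is their neighbor. The nearest are *jnk-1*, which ends 1.18 Mb before them, and *lin-45*, 1.39 Mb before them, followed by *let-60* at 3.54 Mb, *kgb-2* at 4.53 Mb and *kgb-1* at 7.73 Mb. In that order of distance their log2 fold changes were 0.13, 0.02, 0.002, -0.44 and 0.04.

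Genes that act with the 10 were taken from 5 lists by role, 51 genes in all, each of which was tested. None passed the adjusted threshold in either direction, beside 0.444% of all tested genes, and none had an unadjusted p under 0.05 in edgeR, beside 6.62%. In DESeq2 and limma-voom the count of calls was also 0. Their median log2 fold change was 0.01, and 27 of the 51 were positive, beside 47.6% of all tested genes.

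Among 15 partners of the JNK and KGB cascade, the median was -0.02. *svh-1*, which encodes a growth factor-like ligand upstream of MLK-1, stood at 1.08, 2.35 and 1.86 CPM in WT, against 3.13, 2.91 and 2.45 CPM for *grh-1* OEx. It was the only one of the 51 whose groups did not overlap, beside 9.53% of all tested genes in either direction and 3.39% with *grh-1* OEx above WT. Its log2 fold change of 0.67, with a standard error of 0.31, did not pass (adjusted p = 0.778, edgeR). *svh-1* had 16 to 65 counts a library. It lies on chromosome IV from 8206614 to 8213723, near the p38 genes (8139219 to 8151246). Whether its level goes with that position was not tested. The discoidin domain receptor gene *ddr-2* was next by p (0.46, standard error 0.24, adjusted p = 0.837), and the kinase gene *mig-15* followed (0.20, standard error 0.16).

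Of 8 ERK ligands and receptors, with a median of 0.01, the EGF receptor gene *let-23* had the smallest p, at 16.4 CPM in WT and 14.1 CPM in *grh-1* OEx (log2 fold change -0.22, standard error 0.15). The FGF receptor gene *egl-15* (0.23, standard error 0.29) and its ligand gene *let-756* (-0.19, standard error 0.25) were next. The 10 adaptors, exchange factors and scaffolds ran from -0.11 to 0.20, led by the scaffold gene *ksr-1* (0.20, standard error 0.17), with *rgl-1* (0.16) and *ral-1* (-0.10) of the Ral branch behind it. The 8 inhibitors ran from -0.05 to 0.32, the highest being the Ras GTPase-activating protein gene *gap-1* (0.32, standard error 0.27), with *gap-2* at 0.09 and the Cbl ubiquitin ligase gene *sli-1* at -0.05. The 10 nuclear effectors and downstream kinases ran from -0.24 to 0.13. Of these, the ETS factor gene *lin-1* (-0.24, standard error 0.18), the Hox gene *lin-39* (0.13, standard error 0.17) and *lin-25* (0.09, standard error 0.13) had the smallest p.

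**Figure D5:**
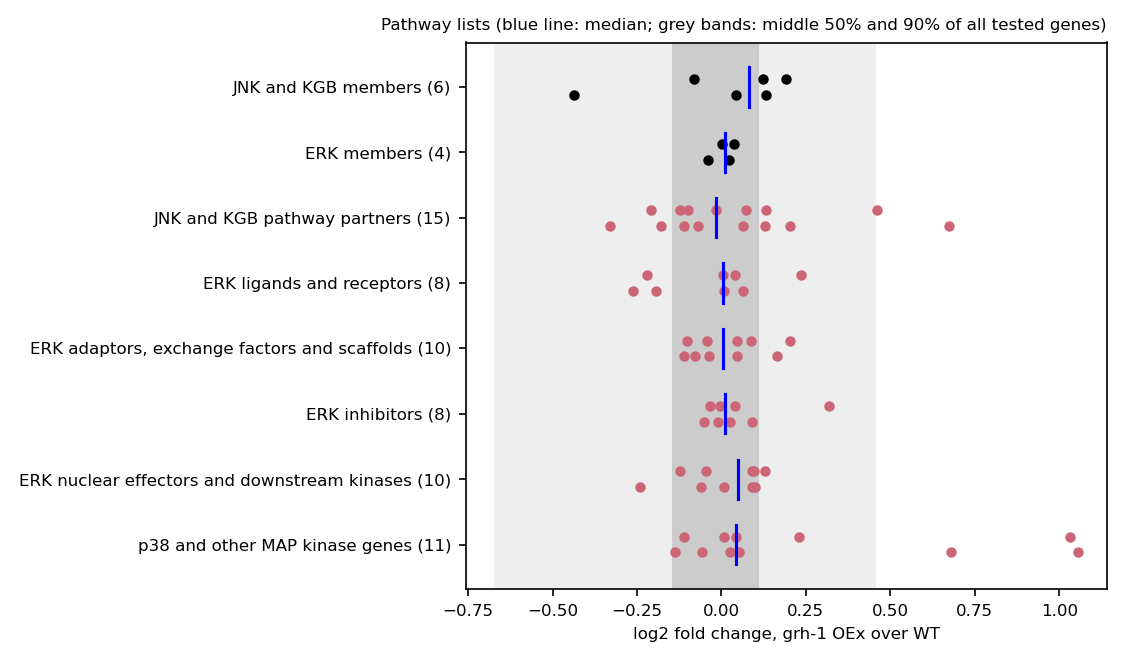
Log2 fold change of *grh-1* OEx over WT for each gene of the 10 described here (black) and of the pathway lists (red), with the median of each list as a blue line and grey bands for the middle 50% and 90% of all tested genes. Every list median lies between -0.02 and 0.08, and the points right of 0.6 are *svh-1*, *pmk-1*, *pmk-2* and *pmk-3*.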

How the data were processed

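Total RNA of 3 WT and 3 *grh-1* OEx populations, which the study describes as independent biological samples, was poly(A)-enriched and sequenced single-end. The authors aligned trimmed reads to the Ensembl build WBcel235 using STAR and used featureCounts, of Subread, for the counts per gene. Versions are not given in the sources used here. Raw counts of 20362 protein-coding genes were deposited. For genes with high counts in every library, the deposited normalized counts (a signal: counts divided by 1 factor per library) matched the raw counts within 1%. So did the FPKM deposited by the authors, and both were used for that check only. *jkk-1*, *kgb-2* and *jnk-1* had too few counts to be part of the check. The deposited p-values, false discovery rates and log2 ratios come from the authors' own comparison and were not used.

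Counts were tested with edgeR 4.0.16 (R 4.3.3; glmQLFit and glmQLFTest, TMM normalization, group as the only term) after filterByExpr (minimum count 10, minimum total 15), with Benjamini-Hochberg adjustment over 13736 genes and a threshold of 0.05. Every adjusted p is from this test. CPM were scaled by TMM and divided by the deposited gene length for levels per kilobase. The 95% intervals are the log2 fold change plus or minus its standard error times the quantile of the t distribution at the fitted degrees of freedom. Deviations of a library used log2(CPM + 0.5). The steps were tested on simulated counts. Overlaps and transcripts were read from Ensembl release 115, of the same build. Alternatives were DESeq2 1.42.0, limma-voom (limma 3.58.1) with TMM or quantile normalization, upper-quartile and RLE factors, omission of the filter, a stricter filter (10 counts or more in all libraries), a replicate block, and omission of each library in turn.

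The named genes were all 10 members, up to 3 genes of each pathway list with the smallest p, the 3 p38 genes and *grh-1*. The other tested genes annotated with MAP kinase activity were also named. Members and lists were chosen with earlier results of these data known. Sequences were not used here.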

Additional observations from a re-analysis of the deposited data

How the results depend on the processing

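None of the 10 genes and none of the 51 pathway genes passed the threshold in any of the 14 alternatives, although the count of all genes called ranged from 1 to 60 higher and from 10 to 212 lower. The direction held in 123 of 140 values of single genes, for *jnk-1* and *kgb-2* in every alternative. For *kgb-2* this largely follows from groups that did not overlap. The median log2 fold change of the 10 genes, 0.03, ranged from -0.079 (without *grh-1* OEx replicate 2) to 0.12 (without *grh-1* OEx replicate 3). Without *grh-1* OEx replicate 2, signs turned for *jkk-1* (-0.16), *kgb-1* (-0.051), *mlk-1* (-0.070), *let-60* (-0.040), *lin-45* (-0.10) and *mpk-1* (-0.082), and 1 of the 10 values was positive instead of 7. Without WT replicate 3 they turned for *mek-1* (0.11), *mek-2* (0.04) and *let-60* (-0.0019), without WT replicate 1 for *lin-45* (-0.06) and *mek-2* (0.054), and without *grh-1* OEx replicate 3 for *mek-1* (0.00075) and *mek-2* (0.03). *let-60* also turned with upper-quartile factors (-0.0024), limma-voom (-0.00036) and quantile normalization (-0.012), and *mek-2* without a filter (0.0097). The cause was not tested. By leaving out 1 library at a time, the single values ranged from 0.025 (without *grh-1* OEx replicate 2) to 0.31 (without WT replicate 1) for *jnk-1*, with 0.27 when *grh-1* OEx replicate 3 was left out and 0.046 when WT replicate 3 was. They reached 0.42 for *jkk-1*, 0.14 for *kgb-1*, 0.40 for *mlk-1*, 0.071 for *let-60*, 0.24 for *lin-45* and 0.18 for *mpk-1*, and the lowest were -0.11 for *mek-2* and -0.16 for *mek-1* (both without WT replicate 2). Those of *kgb-2* ranged from -0.53 to -0.34.

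No sign of a pairing by replicate number was seen: deviations from the group means correlated by 0.16, -0.04 and -0.16 between same-numbered libraries. With so few libraries a group, and WT replicate 3 apart from the rest, these values cannot show that the libraries were unpaired. With the replicate number as a block (replicate block) the median was 0.039, and no gene of the 10 was called. Over all genes, 10 were then higher and 42 lower, beside 20 and 41 without the block. Not every library correlated best with its own number. At 10 to 47 counts a library, depth limits what *jkk-1* and *kgb-2* can show.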
